A study of Rattus norvegicus with 9 samples.

Results

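Genes of cholesterol synthesis and of the SREBP-2 pathway that controls it were followed by name in microdissected rat liver. Of 29 listed genes, the platform annotation held 26, each with 1 probe set, out of 18166 genes named on the array. All 26 exceeded the brightness filter and were among the 15793 genes tested. Hmgcs1, Mvk and Npc1l1 were not held by the annotation and are not analysed here. By role, 4 genes belong to the sterol sensor, 5 to the mevalonate steps, 3 to the squalene steps, 8 to the steps from lanosterol to cholesterol and 6 to the handling of sterols and related lipids.

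The RNA came from livers of female F344 rats that received retrorsine at 30 mg/kg with 2 weeks between the 2 doses, and partial hepatectomy 4 weeks after the last. Retrorsine is a plant alkaloid that stops most hepatocytes from dividing, and small hepatocyte-like progenitor cells (SHPCs) then form clusters that rebuild the liver. There were 3 arrays of SHPC clusters from livers that had received Thy1+ cells through the spleen, 3 arrays of SHPC clusters from livers without transplantation, and 3 arrays of hepatocytes next to the clusters, again without transplantation. All the rats of the 3 groups had retrorsine and hepatectomy, so none of the groups is untreated liver. The donor cells carried the enzyme DPPIV and the recipients lacked it. The clusters were picked by eye on hematoxylin-stained sections 7 µm thick and cut out with a laser. The labels give neither ages nor the number of animals and tie no array to an animal. The p-values therefore measure the spread between arrays, and are too small if arrays of the same group share an animal. Where an SHPC array and a hepatocyte array share an animal, a fit without pairing can give p-values that are too large.

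Cholesterol is built from acetyl-CoA through mevalonate, the isoprenoid farnesyl diphosphate, squalene and lanosterol. The transcription factor SREBP-2, encoded by Srebf2, sits in the membrane of the endoplasmic reticulum with its escort Scap. When sterols are plentiful, the Insig proteins hold Scap back, and when they are scarce, Scap carries SREBP-2 to the Golgi, where proteases free the part that enters the nucleus and switches on most genes of the pathway. Insig1 is itself a target of SREBP-2, whereas rodent liver also makes a form of Insig2 whose mRNA is lowered by insulin. The liver is a main site of this synthesis.

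Over all genes, 2 arrays differed from the remaining 7, array 2 of the SHPCs without transplantation and array 2 of the hepatocytes, at 54.1 and 42.2 on the first principal component (54.4% of the variance), with the rest between -22.8 and 2.30. Without SHPC array 2, the difference between the 2 SHPC groups shrank by over 1.5 times in 11 of the 26 genes, grew by over 1.5 times in 1 (Insig2) and changed sign in 2 (Mvd and Mylip). Without hepatocyte array 2, the difference between SHPCs of transplanted livers and hepatocytes shrank to this extent in 6 genes and changed sign in 2. Values without these arrays are given beside the genes concerned. Values are log2 of the deposited intensity, and a difference of 1 on this scale is a doubling. The Thy1+ comparison asked how SHPCs of transplanted livers differ from SHPCs of livers without transplantation. Of the 26 genes, 24 had a higher mean in SHPCs of transplanted livers. The median difference was 0.71, against 0.02 over all genes tested, of which 53% were higher. Adjusted over all genes with limma and Benjamini-Hochberg at 0.05, 0 of the 26 passed, and 1 of all 15793 genes did (0.00633%). Without adjustment, 16 of the 26 had a limma p under 0.05 in the higher direction (61.5%), against 5.07% of all genes, and 0 in the lower direction, against 2.29% of all genes. In 14 of the 26, all 3 arrays of transplanted livers lay above all 3 SHPC arrays without transplantation (53.8%), as they did in 10.6% of all genes.

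Against hepatocytes, SHPCs of transplanted livers were higher in 22 of the 26 genes, with a median difference of 0.64 against 0.00 over all genes. Here 2 of the 26 passed the adjusted threshold (7.69%), Insig1 and Hsd17b7, both higher, where 1.18% of all genes passed. An unadjusted p under 0.05 was found for 14 genes in the higher direction, against 7.07% of all genes, and for 1 gene, Insig2, in the lower direction, against 3.32% of all genes. Every array of transplanted livers lay above every hepatocyte array in 16 genes, against 12.6% of all genes. Cell type and transplantation differ together in this comparison, and it uses the same 3 arrays of transplanted livers as the one above. The fits were limited in precision by 3 arrays per group.

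**Figure D1:**
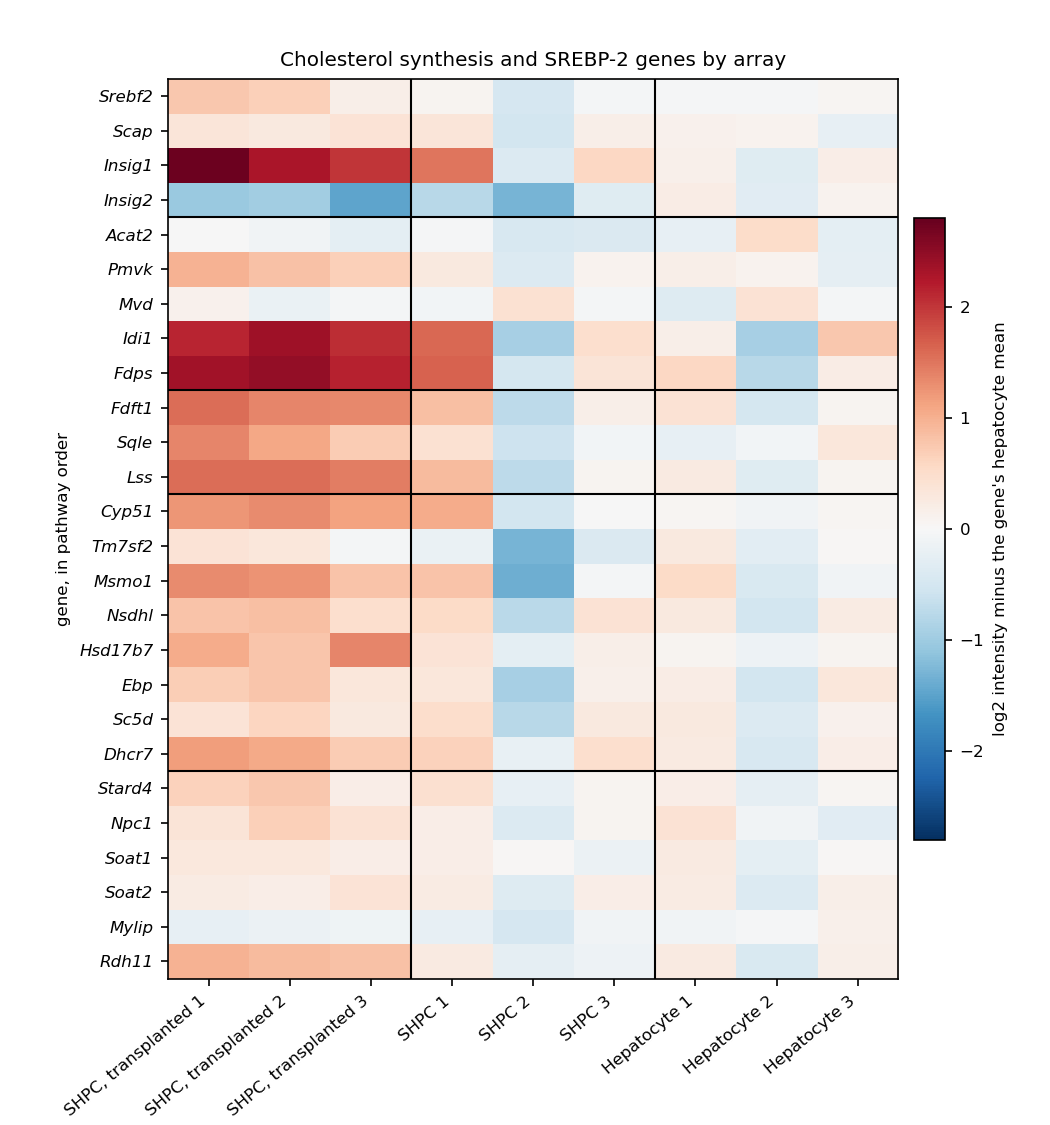
Heat map of the 26 genes (rows, in pathway order, with lines between roles) on the 9 arrays (columns: SHPCs of transplanted livers, SHPCs of livers without transplantation, hepatocytes), coloured by log2 intensity minus the gene's hepatocyte mean. Most rows are red on the 3 arrays of transplanted livers, Insig2 is blue there, SHPC array 1 is mostly red and SHPC array 2 mostly blue.

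Promoters are shown for the 2 genes that passed the threshold, for the enzyme genes Fdps and Lss, which had the next smallest p of the enzymes against hepatocytes, and for Insig2, which ran the other way. RefSeq promoters of assembly GRCr8 cover 250 bases before to 50 after the start of a gene, and 21 of the 26 genes matched one. SREBP binds sterol regulatory elements, often beside a CCAAT box bound by the factor NF-Y. Capitals mark matches to the CCAAT box, which on the other strand reads ATTGG, and to a short sterol element core, CACNCCAC, which on the other strand reads GTGGNGTG. Positions count from the gene's start, with negative numbers before it.
Insig1: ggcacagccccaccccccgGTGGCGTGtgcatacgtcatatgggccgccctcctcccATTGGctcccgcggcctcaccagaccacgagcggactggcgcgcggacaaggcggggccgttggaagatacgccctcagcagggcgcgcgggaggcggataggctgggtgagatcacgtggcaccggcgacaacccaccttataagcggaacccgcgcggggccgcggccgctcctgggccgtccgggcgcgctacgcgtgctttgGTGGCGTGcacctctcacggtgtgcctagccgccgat
Insig2: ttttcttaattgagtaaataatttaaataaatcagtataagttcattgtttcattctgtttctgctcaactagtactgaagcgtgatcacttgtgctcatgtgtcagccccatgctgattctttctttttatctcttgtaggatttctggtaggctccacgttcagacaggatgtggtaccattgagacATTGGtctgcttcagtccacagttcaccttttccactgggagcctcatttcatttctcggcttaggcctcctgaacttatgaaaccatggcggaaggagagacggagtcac
Fdps: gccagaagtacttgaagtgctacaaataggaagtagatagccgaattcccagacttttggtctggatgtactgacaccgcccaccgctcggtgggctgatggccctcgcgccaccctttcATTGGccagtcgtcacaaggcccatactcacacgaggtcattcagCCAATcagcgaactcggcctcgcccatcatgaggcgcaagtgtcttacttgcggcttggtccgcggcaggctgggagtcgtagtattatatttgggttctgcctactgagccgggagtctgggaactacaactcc
Lss: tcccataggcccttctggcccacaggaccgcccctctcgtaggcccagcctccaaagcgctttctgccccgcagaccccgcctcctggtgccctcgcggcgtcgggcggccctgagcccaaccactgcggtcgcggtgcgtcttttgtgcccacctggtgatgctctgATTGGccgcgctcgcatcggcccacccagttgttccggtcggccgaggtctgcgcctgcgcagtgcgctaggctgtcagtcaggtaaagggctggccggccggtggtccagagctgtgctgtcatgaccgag
Hsd17b7: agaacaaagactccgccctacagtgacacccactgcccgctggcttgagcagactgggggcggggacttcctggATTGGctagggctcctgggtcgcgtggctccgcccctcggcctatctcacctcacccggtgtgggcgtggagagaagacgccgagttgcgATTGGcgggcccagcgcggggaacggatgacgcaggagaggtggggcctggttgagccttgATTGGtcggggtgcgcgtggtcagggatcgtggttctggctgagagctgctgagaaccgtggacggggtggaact
These windows lie on the minus strand, at chr4:8057720-8058019 for Insig1, chr13:35040049-35040348 for Insig2, chr2:176804767-176805066 for Fdps, chr20:12118181-12118480 for Lss and chr13:84722705-84723004 for Hsd17b7. Insig1 held the core on its other strand at -231 to -224 and at 14 to 21, and a CCAAT box at -193 to -189. Fdps held CCAAT boxes at -130 to -126 and -85 to -81, Lss one at -82 to -78, Insig2 one at -61 to -57 and Hsd17b7 boxes starting at -176, -86 and -25. On either strand, a CCAAT box was found in 16 of the 21 promoters (76.2%), against 37.7% of all 27457 promoters and 38.0% of those of genes on the array. The core was found in 3 of 21 (14.3%), Acat2, Ebp and Insig1, against 5.70% of all promoters, and its longer form TCACNCCAC, which contains the core, in 0 of 21, against 1.13%. Fdps and Lss held no match to this core in their windows, and sterol elements of other letters were not searched for. A match of these letters is a description and no test of binding.

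Among the sensor genes, Insig1, the SREBP-2-induced retention protein whose promoter held both motifs, read 10.05, 9.59 and 9.32 in SHPCs of transplanted livers, against 8.81, 6.92 and 7.89 in SHPCs without transplantation and 7.46, 6.97 and 7.51 in hepatocytes. The arrays of transplanted livers were all above both other groups, and SHPC array 1 came nearest to them. The mean was 9.65 ± 0.37 (SD, n = 3) in SHPCs of transplanted livers and 7.31 ± 0.29 (SD, n = 3) in hepatocytes. It rose 5.07-fold against hepatocytes, a difference of 2.34 ± 0.40 (SE, limma adjusted p = 0.0264). Against SHPCs without transplantation, whose mean was 7.87 ± 0.94 (SD, n = 3), the difference was 1.78 ± 0.40 (SE, limma adjusted p = 0.275). The call against hepatocytes did not outlast the loss of an array from either of these groups. The adjusted p of Insig1 was 0.150, 0.115 and 0.109 without array 1, 2 or 3 of transplanted livers, and 0.0831, 0.111 and 0.0933 without hepatocyte array 1, 2 or 3. After median centring of the arrays, the adjusted p of Insig1 was 0.0705 and its difference 2.44.

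Insig2, the second retention protein, ran the other way. It read 9.64, 9.70 and 9.20 in SHPCs of transplanted livers, against 9.91, 9.38 and 10.35 in SHPCs without transplantation and 10.90, 10.36 and 10.79 in hepatocytes. All 3 arrays of transplanted livers lay below all 3 hepatocyte arrays, while they overlapped the SHPC arrays without transplantation. The difference was -1.17 ± 0.25 (SE) against hepatocytes, a level 2.24-fold lower in the mean (limma adjusted p = 0.0732), and -0.36 ± 0.25 (SE) against SHPCs without transplantation (limma adjusted p = 0.720), or -0.61 without SHPC array 2. Set against each gene's own hepatocyte mean, Insig1 minus Insig2 was 3.78, 3.26 and 3.49 in SHPCs of transplanted livers, 2.26, 0.91 and 0.91 in SHPCs without transplantation, and -0.07, -0.02 and 0.09 in hepatocytes. The 3 groups did not overlap in this difference of log2 values, which is a description with no test.

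Srebf2 read 7.30, 7.20 and 6.70 in SHPCs of transplanted livers, against 6.62, 6.07 and 6.48 in SHPCs without transplantation and 6.52, 6.51 and 6.61 in hepatocytes. Its arrays of transplanted livers lay above all the others, array 3 by a small margin. The difference was 0.68 ± 0.19 (SE) against SHPCs without transplantation (limma adjusted p = 0.440) and 0.53 ± 0.19 against hepatocytes (limma adjusted p = 0.360). The escort gene Scap read 7.77, 7.71 and 7.81 in SHPCs of transplanted livers, against 7.77, 6.91 and 7.60 in SHPCs without transplantation and 7.55, 7.53 and 7.21 in hepatocytes. Scap overlapped between the SHPC groups, and its difference there, 0.34 ± 0.21 (SE), had a 95% interval of -0.14 to 0.81. The difference of Scap was 0.08 without SHPC array 2, its lowest array.

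**Figure D2:**
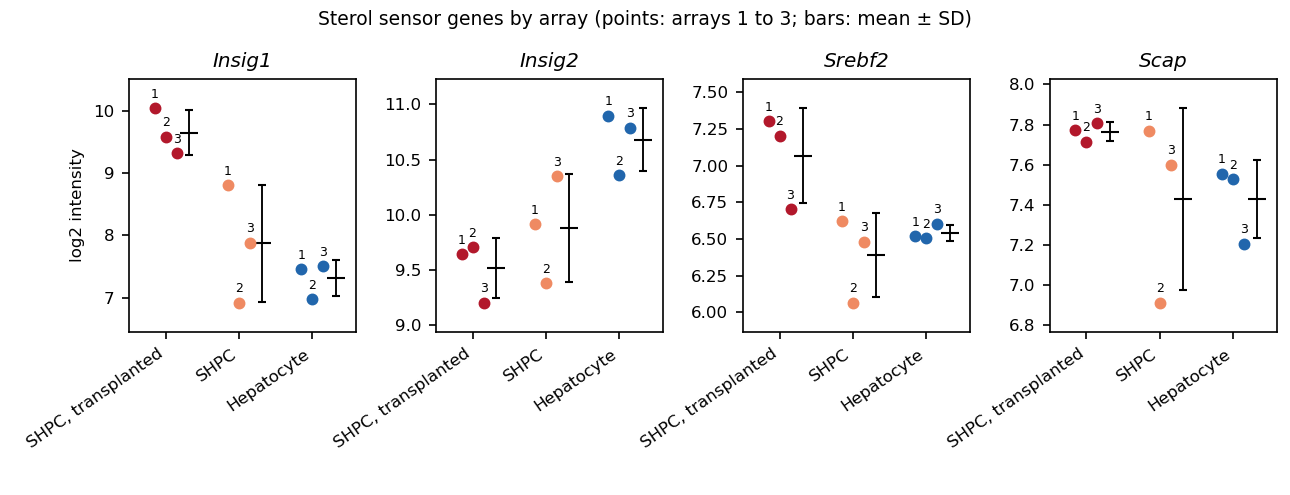
Log2 intensity of Insig1, Insig2, Srebf2 and Scap on each array, numbered 1 to 3, in SHPCs of transplanted livers, SHPCs of livers without transplantation and hepatocytes, with a bar for the group mean ± SD (n = 3). Insig1 is above both other groups on all 3 arrays of transplanted livers, at 9.32 or more, and Insig2 is below the hepatocytes there, at 9.70 or less.

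The 5 mevalonate genes lead from acetoacetyl-CoA to farnesyl diphosphate and had a median difference of 0.82 against SHPCs without transplantation and 0.82 against hepatocytes. Fdps, farnesyl diphosphate synthase, read 9.17, 9.26 and 8.97 in SHPCs of transplanted livers, against 8.46, 6.33 and 7.17 in SHPCs without transplantation and 7.40, 6.03 and 7.02 in hepatocytes. The transplanted group lay above the rest, within a range far narrower than that of the SHPC arrays without transplantation. The differences were 1.81 ± 0.49 (SE) against SHPCs without transplantation (limma adjusted p = 0.394) and 2.32 ± 0.49 against hepatocytes, 5.00-fold in the mean (limma adjusted p = 0.0626). Idi1, the isomerase that makes the building block Fdps joins, read 6.22, 6.46 and 6.16 in SHPCs of transplanted livers, against 5.69, 3.14 and 4.56 in SHPCs without transplantation and 4.24, 3.16 and 4.85 in hepatocytes. It had the widest spread of the 26 among SHPC arrays without transplantation, with an SD of 1.28, and its difference of 1.81 ± 0.58 (SE) had an adjusted p of 0.478 in limma. The difference of Idi1 was 1.15 without SHPC array 2.

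Pmvk, phosphomevalonate kinase, read 6.47, 6.33 and 6.16 in SHPCs of transplanted livers, against 5.78, 5.10 and 5.60 in SHPCs without transplantation and 5.65, 5.58 and 5.25 in hepatocytes. It was above both other groups on every array, and its difference was 0.82 ± 0.20 (SE) against each of them (limma adjusted p = 0.296 against SHPCs and 0.0975 against hepatocytes). The remaining mevalonate genes, Acat2 and Mvd, did not share this pattern. Acat2, the cytosolic thiolase of the entry step, read 5.06, 4.97 and 4.80 in SHPCs of transplanted livers, against 5.04, 4.64 and 4.68 in SHPCs without transplantation and 4.85, 5.59 and 4.80 in hepatocytes. Mvd, mevalonate diphosphate decarboxylase, read 5.45, 5.15 and 5.27 in SHPCs of transplanted livers, against 5.25, 5.77 and 5.29 in SHPCs without transplantation and 4.98, 5.74 and 5.29 in hepatocytes. Both genes overlapped in every pair of groups, and the differences from SHPCs without transplantation had 95% intervals of -0.32 to 0.64 for Acat2 and -0.62 to 0.34 for Mvd. Without SHPC array 2 the difference of Mvd turned to 0.023 and that of Acat2 was 0.09.

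The 3 squalene genes had the largest median of the roles, 1.33 against SHPCs without transplantation and 1.42 against hepatocytes, and in each of them all arrays of transplanted livers lay above the other 6 arrays. Fdft1, squalene synthase, the first enzyme committed to sterols, read 8.50, 8.30 and 8.28 in SHPCs of transplanted livers, against 7.79, 6.21 and 7.11 in SHPCs without transplantation and 7.35, 6.46 and 7.02 in hepatocytes. Sqle, the rate-limiting squalene epoxidase, read 6.78, 6.50 and 6.12 in SHPCs of transplanted livers, against 5.85, 4.85 and 5.35 in SHPCs without transplantation and 5.19, 5.34 and 5.73 in hepatocytes. Lss, which closes squalene epoxide into lanosterol, read 6.97, 6.97 and 6.84 in SHPCs of transplanted livers, against 6.28, 4.68 and 5.48 in SHPCs without transplantation and 5.66, 5.06 and 5.48 in hepatocytes. In each of the 3 genes SHPC array 2 was the lowest of all arrays. Against SHPCs without transplantation the differences were 1.33 ± 0.36 for Fdft1, 1.12 ± 0.27 for Sqle and 1.45 ± 0.34 for Lss (SE), with limma adjusted p of 0.393, 0.298 and 0.279. Against hepatocytes Lss differed by 1.52 ± 0.34 (SE, limma adjusted p = 0.0737), Fdft1 by 1.42 ± 0.36 and Sqle by 1.05 ± 0.27.

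All 8 genes of the steps from lanosterol to cholesterol were higher in the mean in SHPCs of transplanted livers, by 0.42 to 1.34 against SHPCs without transplantation and by 0.22 to 1.23 against hepatocytes. Without array 2 of the SHPCs and of the hepatocytes these ranges were 0.03 (Sc5d) to 0.79 (Hsd17b7) against SHPCs and 0.07 (Tm7sf2) to 1.18 (Cyp51) against hepatocytes. Hsd17b7, the keto reductase of the sterol demethylation complex, read 5.69, 5.44 and 6.03 in SHPCs of transplanted livers, against 5.05, 4.38 and 4.82 in SHPCs without transplantation and 4.73, 4.51 and 4.74 in hepatocytes. Its arrays of transplanted livers were the highest, and the other groups overlapped each other. The mean was 5.72 ± 0.30 in SHPCs of transplanted livers and 4.66 ± 0.13 in hepatocytes (SD, n = 3 each). It rose 2.09-fold against hepatocytes, a difference of 1.06 ± 0.20 (SE, limma adjusted p = 0.0413), and differed by 0.97 ± 0.20 from SHPCs without transplantation (limma adjusted p = 0.198), the smallest p of the 26 there. The call was lost without any 1 array of transplanted livers (adjusted p of Hsd17b7 0.177, 0.0959 and 0.198 without array 1, 2 or 3), without any 1 hepatocyte array (0.101, 0.148 and 0.132) and without SHPC array 3 (0.0682). It was lost also after quantile normalization (Hsd17b7 adjusted p = 0.0556) and median centring (0.116).

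Dhcr7, the reductase of the last step, read 8.83, 8.72 and 8.38 in SHPCs of transplanted livers, against 8.30, 7.46 and 8.13 in SHPCs without transplantation and 7.92, 7.21 and 7.85 in hepatocytes. Its difference was 0.68 ± 0.26 (SE) from SHPCs without transplantation (limma adjusted p = 0.626), or 0.43 without SHPC array 2, and 0.98 ± 0.26 from hepatocytes (limma adjusted p = 0.144). Cyp51, the lanosterol demethylase, lay at 7.75 to 7.93 in SHPCs of transplanted livers, above 6.10 to 7.65 in SHPCs without transplantation and 6.51 to 6.68 in hepatocytes. Tm7sf2, a sterol reductase, read 8.44, 8.37 and 7.99 in SHPCs of transplanted livers, against 7.86, 6.75 and 7.64 in SHPCs without transplantation and 8.33, 7.74 and 8.07 in hepatocytes. For Tm7sf2 the hepatocytes overlapped the SHPCs of transplanted livers, and the SHPCs without transplantation had the lowest mean, by 0.85 below SHPCs of transplanted livers, or by 0.51 without SHPC array 2. Msmo1 and Nsdhl, of the removal of methyl groups from lanosterol, Ebp, the sterol isomerase, and Sc5d, the sterol desaturase, overlapped between the 2 SHPC groups, at differences of 1.34, 0.64, 0.75 and 0.42. These differences were 0.75 for Msmo1, 0.23 for Nsdhl, 0.36 for Ebp and 0.03 for Sc5d without SHPC array 2.

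The 6 genes of sterol handling and related functions had the smallest median, 0.34 against SHPCs without transplantation and 0.37 against hepatocytes. The exception was Rdh11, a retinol dehydrogenase that is an SREBP target in mouse liver. It read 7.45, 7.38 and 7.32 in SHPCs of transplanted livers, against 6.75, 6.24 and 6.34 in SHPCs without transplantation and 6.75, 6.07 and 6.65 in hepatocytes. Rdh11 was above both other groups by 0.94 ± 0.20 (SE, limma adjusted p = 0.224 against SHPCs) and 0.89 ± 0.20 (limma adjusted p = 0.0823 against hepatocytes). Npc1, which exports cholesterol from lysosomes, differed by 0.52 from SHPCs without transplantation and did not overlap with them. Stard4, a cytosolic sterol carrier, differed by 0.44, and Soat1 and Soat2, the enzymes that esterify cholesterol for storage, by 0.24 each, all with overlap. With SHPC array 2 left out, the difference was 0.28 for Stard4, 0.25 for Soat1 and 0.06 for Soat2. Mylip, the ubiquitin ligase that removes lipoprotein receptors and a target of LXR, the receptor of oxidised sterols, read 5.08, 5.16 and 5.19 in SHPCs of transplanted livers, against 5.08, 4.85 and 5.21 in SHPCs without transplantation and 5.22, 5.28 and 5.45 in hepatocytes. Its difference between the SHPC groups was 0.10 with a 95% interval of -0.21 to 0.40, and it turned to -0.00311 without SHPC array 2.

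**Figure D3:**
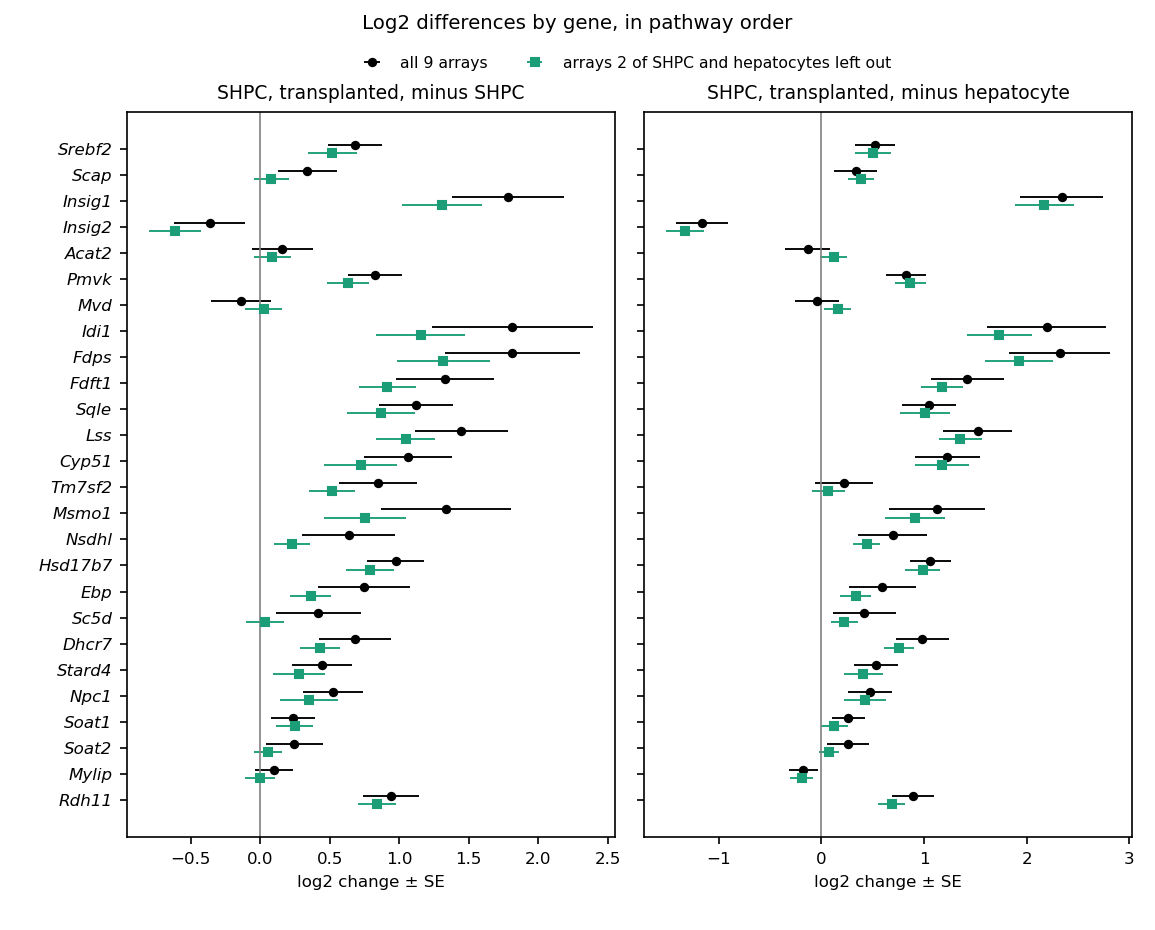
Log2 differences ± SE of the 26 genes (rows, in pathway order) in SHPCs of transplanted livers minus SHPCs of livers without transplantation (left) and minus hepatocytes (right), with all 9 arrays (circles) and without array 2 of SHPCs and of hepatocytes (squares). With all arrays 24 of 26 points lie right of 0 on the left and 22 on the right, and without those arrays most differences from SHPCs are smaller, with a median of 0.47.

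SHPCs of livers without transplantation and the hepatocytes beside them showed no common direction. Of the 26 genes, 14 were higher in SHPCs, with a median of 0.01 against -0.01 over all genes, and 0 passed the adjusted limma threshold, which 10 of all genes did (0.0633%). With an unadjusted p under 0.05 there were 0 genes in the higher direction, against 2.31% of all genes, and 2 in the lower direction (7.69%), Insig2 and Tm7sf2, against 1.81% of all genes. Insig2 was lower by a difference of -0.80 ± 0.25 (SE, limma adjusted p = 0.759), with the highest SHPC array at 10.35 and the lowest hepatocyte array at 10.36. Tm7sf2 differed by -0.63 ± 0.28 and Mylip by -0.27 ± 0.14 (SE, limma adjusted p = 1.00 for both). Insig1 differed by 0.56 with a 95% interval of -0.34 to 1.46, and Srebf2 by -0.15 with an interval of -0.59 to 0.28. Deviations of equally numbered arrays of these groups correlated, at r = 0.526, 0.705 and 0.341 for numbers 1, 2 and 3. SHPC array 3 correlated better with hepatocyte array 1 (r = 0.480), so the numbers are no sure pairing. With the number as a block, 35 of all genes and 0 of the 26 passed, or 76 and 0 in a fit of these 2 groups alone. The count of genes with a higher mean depended on single arrays, at 3 of 26 without SHPC array 1, 21 without SHPC array 2 and 8 without hepatocyte array 2. Without both arrays numbered 2 it was 19 of 26, with a median difference of 0.15.

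Within a group, most of the 26 genes were high or low on the same arrays. Averaged over the 26, the deviation from the hepatocyte mean was 0.85, 0.82 and 0.61 in SHPCs of transplanted livers, 0.45, -0.55 and 0.07 in SHPCs without transplantation, and 0.17, -0.25 and 0.08 in hepatocytes. For the 16 synthesis enzymes it was 1.07, 1.02 and 0.82 in SHPCs of transplanted livers, 0.60, -0.62 and 0.10 in SHPCs without transplantation, and 0.17, -0.28 and 0.11 in hepatocytes. SHPC array 1 was the highest of its group in 23 of the 26 genes, which 32.4% of all genes shared, and SHPC array 2 the lowest in 24, against 46.6% of all genes. Array 3 of transplanted livers was the lowest of its group in 20 genes (32.4% of all genes), and hepatocyte array 2 in 19 (42.1% of all genes).

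**Figure D4:**
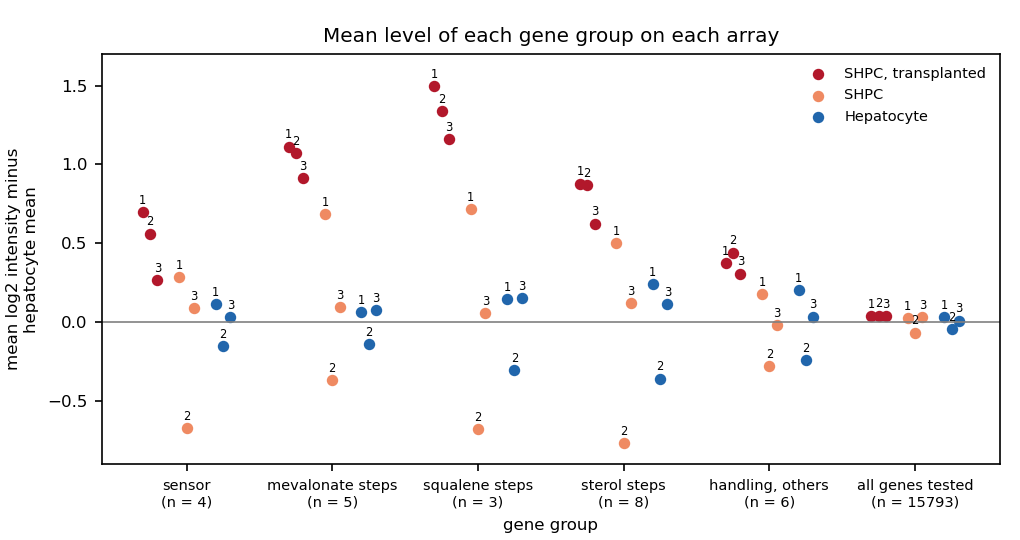
Mean deviation from the hepatocyte mean (log2 intensity) by role of the genes, 1 point per array, for SHPCs of transplanted livers, SHPCs of livers without transplantation and hepatocytes. The squalene genes of transplanted livers lie at 1.16 to 1.50, and SHPC array 2 is the lowest point in each role.

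With array 2 of the SHPCs without transplantation and array 2 of the hepatocytes left out, 24 of the 26 genes were still higher in SHPCs of transplanted livers than in SHPCs without transplantation, the median difference was 0.47, and 14 genes still did not overlap, against 15.2% of all genes. In that fit 0 of the 26 passed against SHPCs (16 at an unadjusted limma p under 0.05, against 10.1% of all genes) and 10 against hepatocytes, where 3.64% of all genes passed. Those 10 were Insig1, Insig2 (lower), Pmvk, Idi1, Fdps, Fdft1, Lss, Hsd17b7, Dhcr7 and Rdh11. Without SHPC array 2 alone, 12 of the 26 passed against hepatocytes (2.99% of all genes), and without SHPC array 1 alone, 5 did (1.13%). SHPC arrays without transplantation enter that comparison only through the spread estimated over all 3 groups. The differences from hepatocytes were therefore the same in these fits, with a median of 0.64. Without SHPC array 1, Insig1, Lss and Cyp51 also passed against SHPCs without transplantation, at limma adjusted p of 0.0453, 0.0424 and 0.0199, where 0.152% of all genes passed.

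Other genes around the pathway were read from lists of related genes. The genes that cut, escort and degrade the sensor proteins in the endoplasmic reticulum and Golgi had 0 of 8 passing in any comparison, with a median of 0.32 against SHPCs without transplantation and 0.20 against hepatocytes in SHPCs of transplanted livers. Among them Mbtps1 and Mbtps2, the proteases that free SREBP, differed from SHPCs without transplantation by -0.04 and 0.30. The isoprenoid branch, which uses farnesyl diphosphate for other products, had 0 of 8 passing and medians of 0.07 against SHPCs and 0.19 against hepatocytes. Lipoprotein uptake had 0 of 4 passing (0.15 and 0.29), and efflux and LXR genes had 0 of 8 passing (0.10 and 0.11). Acss2, which makes acetyl-CoA from acetate, differed by 1.10 ± 0.34 (SE) from SHPCs without transplantation (limma adjusted p = 0.467), and 0 of 3 further pathway steps passed. At an unadjusted limma p under 0.05 against SHPCs without transplantation there were 0 of 8 processing genes, 0 of 8 of the isoprenoid branch, 1 of 4 of uptake (higher), 3 of 8 of efflux and LXR (2 higher, 1 lower) and 1 of the 3 further steps (higher), where 5.07% of all genes had such a p in the higher direction and 2.29% in the lower.

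Of 12 further genes of intracellular cholesterol handling, 1 passed, in SHPCs of transplanted livers against hepatocytes (1.18% of all genes passed there). Nceh1, a cholesterol ester hydrolase, averaged 5.36 in SHPCs of transplanted livers and 7.08 in hepatocytes, and fell by 1.72 on the log2 scale (SE 0.18, limma adjusted p = 0.00346). Of the 9 fits with 1 array left out, all 9 kept this call for Nceh1, at adjusted p of 0.00170 to 0.0356. Nceh1 averaged 6.42 in SHPCs without transplantation, so that SHPCs of transplanted livers differed from them by -1.06 (limma adjusted p = 0.142), and these SHPCs without transplantation differed from hepatocytes by -0.66 (limma adjusted p = 0.560). Tmem97, a sterol-regulated partner of Npc1, differed by 1.24 ± 0.29 (SE, limma adjusted p = 0.0968).

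The sister factor SREBP-1 acts mainly on fatty acid synthesis, and of 11 genes of that list 3 rose in SHPCs of transplanted livers against hepatocytes, where 1.18% of all genes passed. They were Srebf1, which encodes it, at 2.54 ± 0.32 (SE, limma adjusted p = 0.00748), Acacb, an acetyl-CoA carboxylase, at 1.65 ± 0.25 (adjusted p = 0.0205), and Pnpla3, a lipid droplet protein, at 2.03 ± 0.38 (adjusted p = 0.0368). The median of the list was 1.66 against SHPCs without transplantation, where 0 of 11 passed (10 at an unadjusted limma p under 0.05, all higher, against 5.07% of all genes), and 1.99 against hepatocytes, higher than the 0.71 and 0.64 of the 26 cholesterol genes. Without array 1 of transplanted livers the adjusted p of Srebf1 was 0.0546. With 1 array left out, adjusted p reached 0.111 for Acacb, which was lost without any array of transplanted livers or hepatocytes, and 0.166 for Pnpla3, which was lost without any of those or SHPC array 3. After median centring both calls were lost (adjusted p of Acacb 0.0640, of Pnpla3 0.0702), and Pnpla3 was lost also without both arrays numbered 2 (0.0576).

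Alb, the main plasma protein of hepatocytes, lay between 13.54 and 13.69 on all arrays. That is near the brightest value of each array (13306 to 14711 in linear intensity), so a steady Alb says little about the share of hepatocytes. Alb also weighs most in the sum of hepatocyte markers. The summed linear intensity of 5 hepatocyte markers was 24717 to 25332 in SHPCs of transplanted livers, 22879 to 25176 in SHPCs without transplantation and 22891 to 23631 in hepatocytes. Among the 5, 4 had a higher mean in SHPCs of transplanted livers than in SHPCs without transplantation. Tat ran the other way, with a difference of -0.39 (limma adjusted p = 0.669, unadjusted p = 0.0440). In SHPCs without transplantation Tat differed from hepatocytes by 0.68 (limma adjusted p = 0.469). Markers of some other cells were also brighter in the group of transplanted livers. All 6 Kupffer cell markers had a higher mean there than in SHPCs without transplantation. Their sums were 1553 to 2029, above the 878 to 1307 in SHPCs without transplantation and the 1074 to 1483 in hepatocytes, with no overlap. Against SHPCs without transplantation 0 of the 6 passed the adjusted threshold. An unadjusted limma p under 0.05 was found there for 3 of the 6, all higher, against 5.07% of all genes. In 5 of the 6, every array of transplanted livers lay above every SHPC array without transplantation, as in 10.6% of all genes. Among the Kupffer cell markers Marco passed against hepatocytes (0.80 ± 0.16, SE, limma adjusted p = 0.0456), but in only 1 of the 9 fits with an array left out (adjusted p of Marco 0.0257 to 0.203). The call for Marco was lost also after quantile normalization (adjusted p = 0.146), cyclic loess (0.198) and median centring (0.0951), with the compared groups alone (0.0602) and with no filter (0.0503). Stellate cell markers (6 of 6 higher) summed to 732 to 894 in SHPCs of transplanted livers, 462 to 700 in SHPCs without transplantation and 534 to 810 in hepatocytes, and endothelial markers (3 of 3 higher) to 642 to 757, 417 to 617 and 479 to 705. In all of these 3 lists SHPC array 2 was the lowest, as it was for the mean of the cholesterol genes. Cholangiocyte markers had a higher mean than in SHPCs without transplantation in 3 of 6, and their sums were 146.6 to 171.0 in SHPCs of transplanted livers, 136.4 to 146.5 in SHPCs without transplantation and 115.9 to 134.3 in hepatocytes, with no overlap. Of these, Epcam differed from SHPCs without transplantation by 0.74 and Cftr by 0.52 (limma adjusted p = 0.634 and 0.643). Both had an unadjusted limma p under 0.05, as did 5.07% of all genes in the higher direction. Krt7, Sox9 and Spp1 were lower there, at -0.35, -0.33 and -0.02, and Krt19 differed by 0.08. Against hepatocytes 3 of 6 cholangiocyte markers had an unadjusted limma p under 0.05, all higher, as did 7.07% of all genes. T and NK cell markers were higher than in SHPCs without transplantation in 2 of 5 tested, and the sums of all 6 were 137.8 to 147.0 in SHPCs of transplanted livers, 126.2 to 133.3 in SHPCs without transplantation and 123.4 to 149.3 in hepatocytes. Markers of B cells were higher in 0 of 3 and of erythroid cells in 0 of 1, and Cd3d, a defining T cell gene, was at or below the 25th percentile on all arrays. The part of these cells in the differences was not tested, and in dissected tissue a change in the number of cells of a type and a change in RNA per cell cannot be told apart.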

How the data were processed

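Whole-transcript Affymetrix arrays of laser-dissected rat liver were compared in 3 groups of 3 arrays. The deposited table holds a linear intensity for 36685 probe sets, made with RMA (background correction, normalization between arrays and summary of probes) per the submitters' processing notes, with version and settings not given in the sources used here. Values were put on the log2 scale for all tests. Groups follow the cell type label. The description label of the hepatocyte arrays names SHPCs with transplantation instead, while their titles call them controls.

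Probe sets with 1 symbol in the platform annotation (18511) gave 18166 genes, each represented by its brightest probe set on average. A gene was tested if 3 or more arrays exceeded that array's 25th percentile (15793 genes). All 9 arrays entered 1 limma model with a mean for each group (limma 3.58.1, R 4.3.3, 6 residual degrees of freedom). Moderated tests from eBayes were adjusted by Benjamini-Hochberg over all genes tested, at 0.05. The procedure was also run on simulated data with independent noise for each gene and array. Those data held no shift of whole arrays, so the run cannot show how such shifts affect these fits. The 3 arrays per group limit the precision.

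The 26 genes, the other lists, the markers and the alternatives were chosen with earlier results of these data known, so a direction already seen is not independent evidence. Genes given in full are those past the threshold, the 6 with the smallest p in each comparison, the sensor genes, and Sqle, Fdps and Lss. Others are given as single values, ranges and counts, and at most 3 genes of smallest p per further list were named (Mbtps1 and Mbtps2 and the values of Idi1, Fdft1 and Mvd on every array were added after their values were seen). Deviations of equally numbered arrays correlated between SHPCs without transplantation and hepatocytes (r = 0.526, 0.705 and 0.341 for numbers 1, 2 and 3), which comes from the data and not from a label. Unequal numbers correlated there too (0.480 for SHPC 3 with hepatocyte 1, 0.237 for SHPC 1 with hepatocyte 3), so SHPC array 3 correlated best with another number. Equal numbers did not pair the SHPCs of transplanted livers with SHPCs (0.00, -0.09 and -0.04) or with hepatocytes (-0.07, -0.08 and -0.09). Promoters were read from RefSeq (GRCr8). Alternatives were quantile, cyclic loess and median scaling, no filter, array weights, the compared groups alone, a replicate block, averaged probe sets, each array left out, and both arrays numbered 2 of SHPCs and hepatocytes left out.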

Additional observations from a re-analysis of the deposited data

How the results depend on the processing

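Under every alternative, SHPCs of transplanted livers had a higher mean than SHPCs without transplantation in 23 or 24 of the 26 genes (median 0.47 to 0.92), and a higher mean than hepatocytes in 22 to 24 (median 0.47 to 0.77). How many passed the adjusted threshold depended on the setting and on single arrays. Median centring moved the median of all genes by about 0.10 (to 0.12 against SHPCs and 0.09 against hepatocytes), which is small beside the medians of the 26. There were 3 arrays per group, and all 26 genes were above the dim limit on all arrays.

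Between SHPCs of transplanted livers and SHPCs without transplantation, 1 gene passed, against 17 after quantile normalization, 40 after cyclic loess, 0 after median centring, 0 with these groups alone, 259 with array weights, 64 with the replicate block, 23 without both arrays numbered 2 and 0 to 24 with each array left out. Of the 26 genes 0 passed, against 8 with array weights, 4 with the replicate block and 0 to 3 with each array left out. Between SHPCs and hepatocytes 10 genes passed, against 17, 34, 0, 0, 375, 35 and 48 in the same order and 0 to 53 with each array left out. A fit of these groups alone with the replicate block, added after seeing the data, gave 76. Of the 26, 0 passed in each of these fits, and 3 to 21 were higher in SHPCs with each array left out. Between SHPCs of transplanted livers and hepatocytes 186 genes passed, against 328, 440, 47, 304, 2685, 367 and 575 in the same order and 31 to 472 with each array left out. Of the 26, 2 passed, against 5, 10, 0, 9, 19, 11 and 10 in the same order and 0 to 12. Where the array left out belongs to neither compared group, the differences stay the same and only the spread estimated over the groups changes. The cause of the other shifts was not tested. Replicate numbers do not pair the arrays of transplanted livers, so the block has no basis in those comparisons.

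Small differences changed sign, the cause of which was not tested. In SHPCs of transplanted livers against SHPCs without transplantation, Mylip (0.10) was -0.00746 with array weights, -0.00311 without both arrays numbered 2 and -0.00311 to 0.18 with each array left out, and Mvd (-0.14) was 0.023 without both and -0.23 to 0.023 with each left out. In SHPCs of transplanted livers against hepatocytes, Mvd (-0.04) was 0.050 after median centring, 0.013 with array weights, 0.16 without both and -0.22 to 0.16 with each left out, and Acat2 (-0.13) was 0.11 with weights, 0.12 without both and -0.27 to 0.12. In SHPCs against hepatocytes, Scap (-0.00252) was 0.021 after quantile normalization, 0.041 after loess, 0.38 with weights, 0.30 without both and -0.17 to 0.25 with each left out. There Acat2 (-0.29) was 0.034 without both, and Sqle (-0.07) was 0.14 without both and -0.32 to 0.18 with each left out. Leaving out each array gave -0.27 to 0.0083 for Srebf2, -0.064 to 1.00 for Fdps and -0.32 to 0.48 for Lss.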
